A study of Mus musculus with 11 samples.

Results

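The genes described are 9 mouse genes that encode intermediate filament proteins, Gfap, Vim, Nes, Nefl, Nefm, Nefh, Ina, Lmna and Lmnb1. They are 9 of the 18194 genes named by an Affymetrix expression array and were measured by 23 of its 45101 probe sets, taken as all probe sets whose platform annotation names exactly 1 gene, that gene being among the 9. Intermediate filaments are rope-like polymers that give a cell and its nucleus mechanical strength, and which of them a cell makes depends strongly on its type and stage. In the brain, GFAP with vimentin forms the filaments of astrocytes, nestin marks neural stem cells and progenitors, neurofilament subunits and α-internexin fill axons, and lamins line the inside of the nuclear envelope of nearly every cell. Vimentin is also made by cycling glial progenitors, and mature oligodendrocytes are known for having few cytoplasmic intermediate filaments.

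RNA came from cultured cells of the oligodendrocyte lineage on 11 arrays in 3 groups. The CKO oligodendrocytes (n = 3) had the genotype MRF fl/fl; Olig2 wt/cre, in which both copies of Myrf, the myelin regulatory factor that the labels call MRF, can be removed by the Cre recombinase carried at Olig2. Littermates of genotype MRF wt/fl; Olig2 wt/cre gave the control oligodendrocytes (n = 4), so that the same Cre and 1 floxed copy were also present in the controls. To differentiate, both had 40 ng/ml of T3, a thyroid hormone, and no PDGF over 4 days. Oligodendrocyte progenitor cells, or OPCs (n = 4), had 10 ng/ml of PDGF over 6 days instead, and for their genotype the labels say only that they were control cells. Panning on a PDGFRα antibody, after removal of microglia with the lectin BSL1, had isolated all cells from mouse brains of postnatal day 7, and the medium held 2% B-27. PDGFRα is a surface protein of progenitors, and Olig2 is used throughout the oligodendrocyte lineage and by some other neural cells. Whether replicates were separate animals or cultures is not stated in the labels, so the spread behind each p-value is that between these arrays and may be technical.

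RefSeq start regions were at hand for Gfap, Vim, Nes, Ina and Lmna. Those of Gfap, Vim and Ina are printed because Gfap was higher and Ina lower in differentiated cells than in OPCs, while Vim was not called. Each runs from 250 bases before the gene start to 50 bases after it, read 5′ to 3′ on the strand of the gene, in build GRCm38.p6. The Gfap window is chr11:102897151-102897450 on the minus strand, the Vim window chr2:13574061-13574360 on the plus strand and the Ina window chr19:47014431-47014730 on the plus strand. Capitals mark matches to 5 motifs, read on both strands. They are the TATA box, spelled TATAAA, the GC box, spelled GGGCGG, and the CCAAT box, spelled by its name, besides a pair of forms of the motif known for the Myrf protein. The Myrf forms are spelled CTGGCAC for the first and CTGGTAC for the second.
Gfap: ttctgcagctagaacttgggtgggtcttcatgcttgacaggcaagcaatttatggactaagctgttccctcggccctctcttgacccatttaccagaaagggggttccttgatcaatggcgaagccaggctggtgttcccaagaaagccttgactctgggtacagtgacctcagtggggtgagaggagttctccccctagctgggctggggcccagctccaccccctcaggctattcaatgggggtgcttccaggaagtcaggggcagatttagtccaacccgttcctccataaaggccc
Vim: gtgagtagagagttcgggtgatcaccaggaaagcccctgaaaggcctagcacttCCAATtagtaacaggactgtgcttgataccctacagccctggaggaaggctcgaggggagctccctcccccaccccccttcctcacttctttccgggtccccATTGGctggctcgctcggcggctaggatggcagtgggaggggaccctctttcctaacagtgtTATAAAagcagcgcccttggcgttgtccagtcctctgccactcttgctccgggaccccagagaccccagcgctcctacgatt
Ina: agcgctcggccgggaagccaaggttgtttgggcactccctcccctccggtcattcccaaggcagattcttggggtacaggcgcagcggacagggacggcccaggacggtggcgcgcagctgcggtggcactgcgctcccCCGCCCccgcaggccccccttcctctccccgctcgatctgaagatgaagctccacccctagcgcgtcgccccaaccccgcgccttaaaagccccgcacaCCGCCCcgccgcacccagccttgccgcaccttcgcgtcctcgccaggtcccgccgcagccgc
The Vim window held TATAAA with its first base at position -32 from the gene start and CCAAT with its first base at -196 and, on the other strand, at -94. The Ina window held GGGCGG at -111 and at -12, both on the other strand. The Nes window also held GGGCGG on the other strand, at -73 and -62, and the Gfap window held none of the motifs. Of the Lmna windows, chr3:88503303-88503602 held GGGCGG on the other strand at -52, and chr3:88493263-88493562 held CCAAT at -131. Of 32851 promoter windows of the same length, 13.6% held TATAAA, 35.7% GGGCGG, 37.4% CCAAT, 5.01% the first Myrf form and 2.24% the second. Neither Myrf form was in any of the windows of Gfap, Vim, Nes, Ina and Lmna. A match is a description of letters and not a site of binding, and a window without a match says nothing about the factor.

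The deposited values are MAS 5.0 signals on a linear scale, and every array had a trimmed mean of 500, the scaling target. On each array 15100 to 17130 probe sets had a signal of at least 200, and the number of arrays limits the precision. A probe set was tested when it reached 200 on at least 3 of the 11 arrays, which left 10070 genes, each represented by its brightest probe set, and 18 of the 23 probe sets of the family. Differences are of log2(signal + 16), given with their standard errors, and so understate the change of dim genes, and where every array of the lower group was under 100 the fold is given as at least N-fold against that floor. Myrf itself had signals of 1904.4 to 2848.6 in CKO oligodendrocytes, 6215 to 7517.4 in control oligodendrocytes and 752.1 to 1135 on OPC arrays 1, 3 and 4. Whether its probe set lies in the deleted part of the gene is not given in the sources used here. OPC array 2 stood apart, with a Myrf signal of 6848.4, and correlations between OPC arrays across genes began at 0.844, against 0.962 in CKO and 0.936 in control oligodendrocytes. OPC arrays 1 and 4 had low ratios of the 5′ to the 3′ probe set of Gapdh, 0.332 and 0.12, against 1.15 to 1.41 on all other arrays. The oligodendrocyte markers Mag, Mog and Mobp, which are late myelin genes, were 3 of 9 tested oligodendrocyte genes called lower in CKO than in control oligodendrocytes, and 4 of 9 tested progenitor genes, Vcan, Gria3, Sox5 and Sox6, were higher. Against OPCs, 5 of the 9 oligodendrocyte genes were higher and 3 lower in control oligodendrocytes. In CKO oligodendrocytes 1 was higher and 1 lower. Their summed signal was 75316.7 to 88823.4 in CKO oligodendrocytes, 108512 to 134244 in control oligodendrocytes and 51325 to 102432 in OPCs, so CKO arrays lay within the OPC range. Pdgfra, the receptor used for panning, averaged 1538 ± 193 in CKO oligodendrocytes, 2683 ± 799 in control oligodendrocytes and 13967 ± 5603 in OPCs (SD). Listed genes of microglia and endothelium stayed under the filter, at no more than 152.2 and 282.8. Calls of members against OPCs are given with and without OPC array 2, and without arrays 1 and 4 where that ends a call or moves the value by over 1.5 times. Marker and partner lists are given over all arrays unless stated. Their counts stand beside 7.53% of all genes called in CKO against control oligodendrocytes. Against OPCs the shares were 54% for control and 50.6% for CKO oligodendrocytes. Without OPC array 2 these shares were 13.1%, 60.8% and 58.8%.

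Gfap and Lmna rose and Nes and Ina fell in control oligodendrocytes against OPCs, while Vim had high signals in both and was not called. Between CKO and control oligodendrocytes only Nefm passed the test over all genes, and it was lower. Of the 8 members tested, 0 were higher and 1 was lower in CKO than in control oligodendrocytes, beside 3.64% of all genes higher and 3.88% lower, or 7.53% in all. Control oligodendrocytes against OPCs gave 2 higher and 2 lower members, beside 24.4% of all genes higher and 29.6% lower, or 54% in all. CKO oligodendrocytes against OPCs gave 2 higher and 3 lower, beside 23.8% higher and 26.8% lower, or 50.6% in all. The shares of members called against OPCs were thus near those of all genes. Gfap reached the filter only through the 7 oligodendrocyte arrays, and Nefm only through control oligodendrocyte and OPC arrays. Taken one by one, 2 of the 18 probe sets tested were higher and 0 lower in CKO than in control oligodendrocytes, where 5.43% of all probe sets passed. The replicate block, which leaves out the OPC arrays and control array 4 here, gave 3 lower ones. They were Nefm (adjusted p = 0.0316), Nefl (adjusted p = 0.0334) and Lmnb1 (adjusted p = 0.0448), each on its representative probe set. Without OPC array 2 the same probe sets of Nefm (adjusted p = 0.036) and Nefl (adjusted p = 0.0493) were lower. Against OPCs 5 were higher and 5 lower in control oligodendrocytes, beside 53.3% of all probe sets, and 6 higher and 6 lower in CKO oligodendrocytes, beside 50.6%. The median difference of the 8 members was -0.24 in CKO against control oligodendrocytes, beside 0.03 over all genes, and 3 members had an unadjusted p under 0.05. It was 0.01 in control oligodendrocytes against OPCs, beside -0.09 over all genes, and -0.82 in CKO oligodendrocytes against OPCs, beside -0.05. Each pair of comparisons shares a group of arrays, so their values are set side by side without a test of likeness. Nefh, the heavy neurofilament subunit, did not reach the filter and had signals of at most 24.1 on every array.

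**Figure D1:**
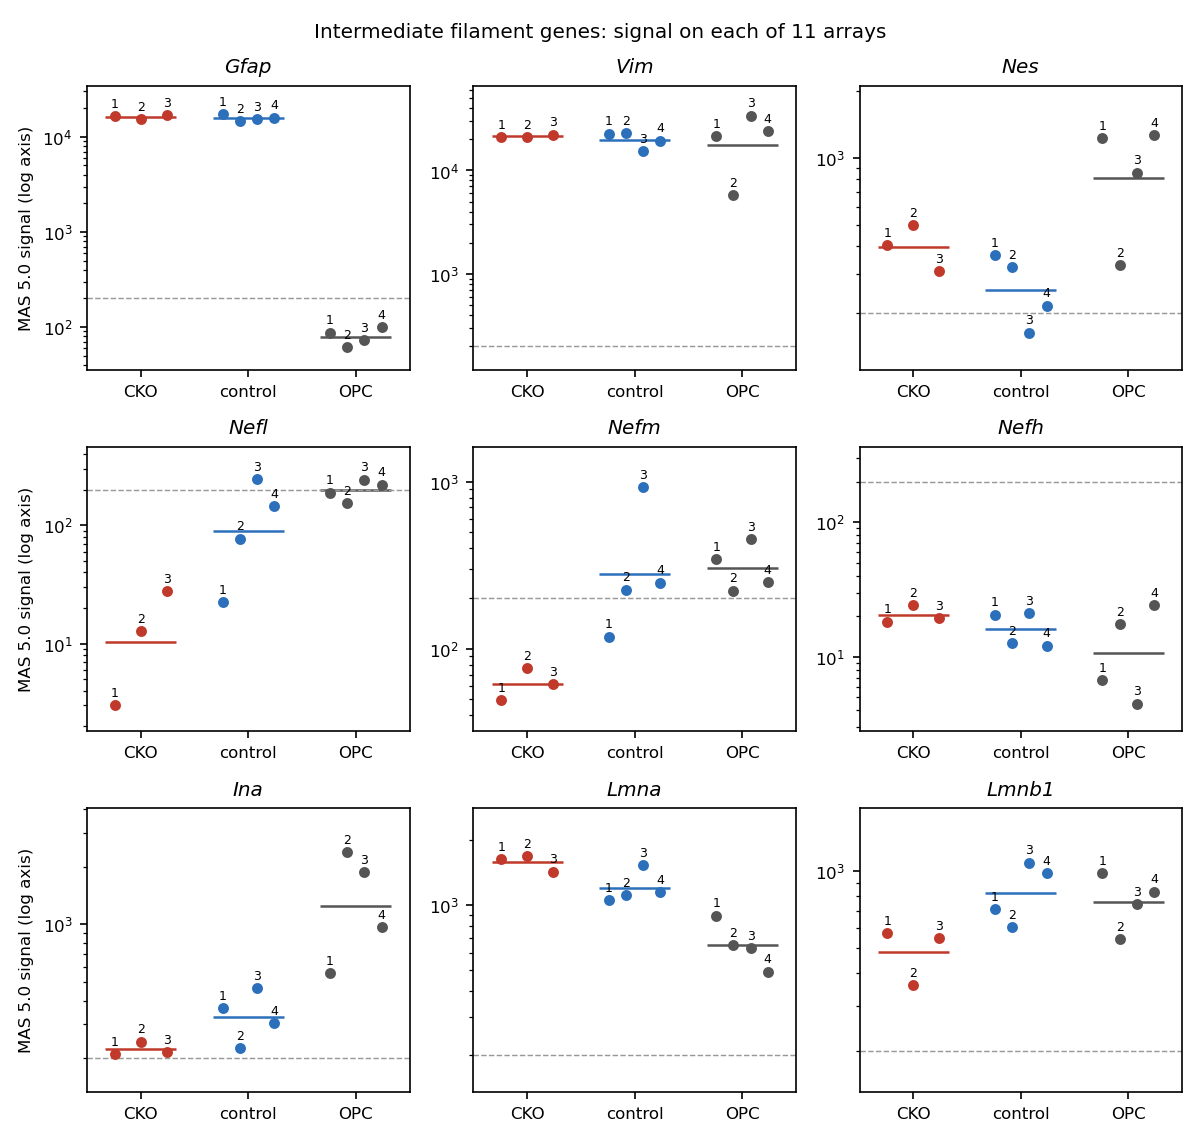
MAS 5.0 signal (log axis) of the representative probe set of each of the 9 genes on the 11 arrays. Points are single arrays with their replicate number, in CKO oligodendrocytes, control oligodendrocytes and OPCs from left to right, short lines are geometric means of the signal, and the dashed line is the signal of 200 used by the filter. Gfap lies at 14658.4 to 17212.4 on all 7 oligodendrocyte arrays and at 61.8 to 100.3 on the OPC arrays.

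Gfap, the filament protein by which astrocytes are recognised, was the member with the widest separation between oligodendrocytes and OPCs. Its signals were 16476.8, 15352.3 and 16881.1 in CKO oligodendrocytes, 17212.4, 14658.4, 15220.2 and 15885.6 in control oligodendrocytes, and 87.5, 61.8, 73.1 and 100.3 in OPCs. All 7 oligodendrocyte arrays were high and close together, all 4 OPC arrays were low, and CKO and control arrays overlapped. Gfap was 165-fold higher in control oligodendrocytes than in OPCs (log2 difference 7.36 ± 0.15 (SE), adjusted p = 3.1e-11), with a 95% interval of 131-fold to 207-fold. It was 170-fold higher in CKO oligodendrocytes than in OPCs (log2 difference 7.41 ± 0.16, adjusted p = 5.09e-11). The folds were 154 for control and 159 for CKO oligodendrocytes when OPC array 2 was left out. With a pseudocount of 64 they were 110 and 113, and with the mean over the 3 Gfap probe sets 279 and 303.

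Between CKO and control oligodendrocytes the difference of Gfap was 0.05 ± 0.16 (adjusted p = 0.913), with a 95% interval from -0.31 to 0.40, that is from 0.808 to 1.32 times the control level. Changes of a size within that interval remain compatible with these arrays. The Gfap signals lay in the upper part of the range, since the highest signal of any probe set was 22056.6 to 26673.2 on the oligodendrocyte arrays. Whether differences are understated at such signals was not tested. The other probe sets of Gfap gave the same order of groups. Probe set 1426509_s_at had 14741.6, 16014.8 and 15429.2 in CKO oligodendrocytes, 13695.3, 11451.1, 13343.2 and 13943.6 in control oligodendrocytes, and 11.1 to 24.3 in OPCs, at least 154-fold and at least 131-fold higher in CKO and control oligodendrocytes than in OPCs. Here the CKO arrays lay above all control arrays, but the difference of 0.24 ± 0.17 did not pass the probe set test (adjusted p = 0.533). Probe set 1440142_s_at varied more, with 9100.4, 14874.6 and 6606.1 in CKO oligodendrocytes, 7375.4 to 11119.4 in control oligodendrocytes and 2.4 to 17.7 in OPCs. CKO and control arrays overlapped on it and OPCs were low on every array.

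Markers of astrocytes were, like Gfap, mostly higher in oligodendrocytes than in OPCs. Of 18 astrocyte genes fixed as a list, 17 were tested and 16 were higher, 0 lower, in CKO oligodendrocytes than in OPCs, and likewise 16 higher and 0 lower in control oligodendrocytes than in OPCs, with and without OPC array 2. Their median difference was 4.52 in CKO and 3.95 in control oligodendrocytes against OPCs. The summed signal of the 18 genes was 118389 to 133270 in CKO oligodendrocytes, 77830.5 to 109683 in control oligodendrocytes and 14249.5 to 18185.3 in OPCs. Aqp4, the water channel of astrocyte endfeet, averaged 13338 ± 1198 in CKO oligodendrocytes, 9923 ± 2272 in control oligodendrocytes and 14.5 ± 8.11 in OPCs (SD, n = 3, 4 and 4). Gja1, a gap junction protein, Mlc1, a membrane protein of astrocyte endfeet, and Aldh1l1, a folate enzyme, were at most 11.4, 3.1 and 39.4 on any OPC array. These genes and Aqp4 could reach the filter only through oligodendrocyte arrays. Between CKO and control oligodendrocytes 0 of the 17 passed the test, and 4 had an unadjusted p under 0.05. The median difference of the 17 there was 0.54, beside 0.05 for Gfap, and their sums did not overlap while Gfap did. Without OPC array 2 in the fit 2 of them were called higher in CKO oligodendrocytes. The part of astrocytes in the Gfap result was not tested, and in these bulk samples more cells of a type and more RNA per cell cannot be told apart.

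**Figure D2:**
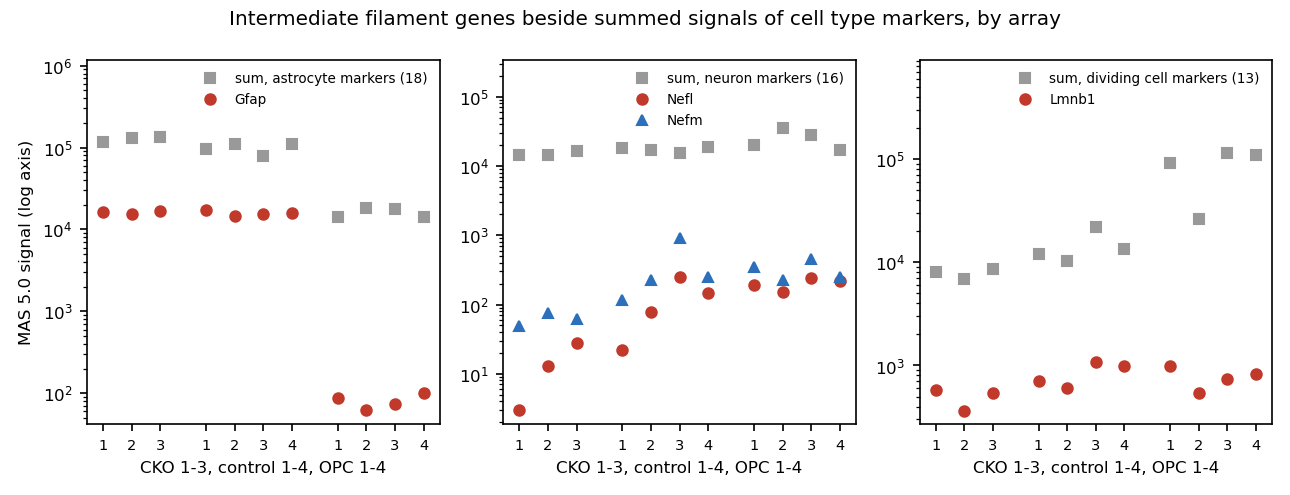
MAS 5.0 signal (log axis) of Gfap, of Nefl and Nefm, and of Lmnb1 (coloured) beside the summed signal of marker lists of astrocytes, neurons and dividing cells (grey squares), for CKO 1 to 3, control 1 to 4 and OPC 1 to 4 from left to right. The astrocyte sum and Gfap are high on the 7 oligodendrocyte arrays, while the dividing cell sum is highest on OPC arrays and lowest of them, at 26620.6, on OPC array 2.

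Vim, the filament protein of mesenchymal cells and of glial progenitors, had high signals in every group. Its representative probe set gave 21127, 21035.1 and 22196.2 in CKO oligodendrocytes, 22703.5, 22891.4, 15475 and 19403.9 in control oligodendrocytes, and 21411.5, 5788.5, 33891.1 and 23864.5 in OPCs. The groups overlapped, control array 3 was the lowest oligodendrocyte array, and OPC array 2 was 4.56-fold under the mean of the other OPC arrays. The highest signal of any probe set was 22088.9 on CKO array 2 and 24031.2 on CKO array 3, so Vim lay near the top there. Whether Vim differences are understated so near the top was not tested. The difference was 0.11 ± 0.44 between CKO and control oligodendrocytes (adjusted p = 0.923, 95% interval -0.86 to 1.08). It was 0.16 ± 0.41 between control oligodendrocytes and OPCs (adjusted p = 0.763) and 0.27 ± 0.44 between CKO oligodendrocytes and OPCs (adjusted p = 0.636). When OPC array 2 was left out, the sign of both comparisons with OPCs turned, to -0.38 for control oligodendrocytes (adjusted p = 0.0738) and -0.27 for CKO oligodendrocytes (adjusted p = 0.226), still short of the threshold.

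On both other Vim probe sets OPC array 2 was low too. OPC array 2 had 5745 on 1438118_x_at, where the other OPC arrays had 19817 to 24948.8, and 3057.3 on 1456292_a_at, where they had 15795.4 to 21005.2. In oligodendrocytes these probe sets ranged from 18155.1 to 19138.3 in CKO and from 13853.9 to 19245.3 in control cells on the first, and from 15987.9 to 17091 in CKO and from 10457.2 to 17019.1 in control cells on the second. On 1438118_x_at alone, leaving out OPC array 2 turned the difference between control oligodendrocytes and OPCs to -0.44 (adjusted p = 0.0176), while it was 0.06 with that array in (adjusted p = 0.902).

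Nes, the large filament protein nestin of neural stem cells and progenitors, was lower in control oligodendrocytes than in OPCs. Its signals were 405.4, 498.8 and 310 in CKO oligodendrocytes, 365, 322.3, 163.8 and 216.9 in control oligodendrocytes, and 1219.7, 328.4, 854.9 and 1262.5 in OPCs. OPC arrays 1, 3 and 4 lay above all oligodendrocyte arrays, OPC array 2 lay among them, and CKO and control arrays overlapped. Nes was 3.06-fold lower in control oligodendrocytes than in OPCs (difference -1.61 ± 0.39, adjusted p = 0.00479). It was 4.10-fold lower without OPC array 2 (adjusted p = 5.16e-05), and without OPC arrays 1 and 4 it was 2.02-fold lower, which did not pass (adjusted p = 0.0698). In CKO oligodendrocytes against OPCs the difference was -1.0 ± 0.42 (adjusted p = 0.0657), and without OPC array 2 it was -1.43, a 2.69-fold fall (adjusted p = 0.00127). It passed with quantile normalization too (-1.12, adjusted p = 0.0391), and without OPC arrays 1 and 4 it was -0.41 (adjusted p = 0.472).

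The Nes difference between CKO and control oligodendrocytes was 0.61 ± 0.42 (adjusted p = 0.451, 95% interval -0.31 to 1.53). From high to low the group means stood in the order OPCs, CKO oligodendrocytes, control oligodendrocytes. In the main fit, with OPC array 2 in, neither pair of neighbours passed the adjusted threshold. For CKO oligodendrocytes against OPCs the 95% interval was -1.93 to -0.08, and the unadjusted p of limma was 0.0352. The dimmer probe set 1418289_at had 122.4, 248.1 and 185.5 in CKO oligodendrocytes, 123.1, 88, 117.2 and 179.3 in control oligodendrocytes, and 480, 158.3, 310.6 and 501.9 in OPCs, so that OPC array 2 again lay among the oligodendrocytes. It fell in control oligodendrocytes against OPCs by 1.32 on the log2 scale (adjusted p = 0.00987), or by 1.65 without OPC array 2 (adjusted p = 0.000598), and in CKO oligodendrocytes it differed from OPCs by -0.84 (adjusted p = 0.0931), or by -1.17 without OPC array 2 (adjusted p = 0.00784). Probe set 1453997_a_at stayed under 200 on all arrays and was not tested. Of 9 listed genes of neural stem and radial glial cells with a probe set, 8 were tested, and 4 were higher and 2 lower in control oligodendrocytes than in OPCs, beside the fall of Nes. The lower genes were Notch1, a receptor of lateral signalling, and Sox2, a stem cell transcription factor. Those higher included Id4, an inhibitor of DNA-binding proteins, at 3789 ± 1797 in control oligodendrocytes and 118 ± 30.7 in OPCs, and Prom1, a membrane protein of stem cells, at 2090 ± 305 in control oligodendrocytes and 220 ± 124 in OPCs (SD). Between CKO and control oligodendrocytes 0 of the 8 passed and 1 had an unadjusted p under 0.05, and 1 was lower without OPC array 2 in the fit, Prom1.

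The neurofilament genes Nefl, Nefm and Nefh encode the light, medium and heavy subunits that together make the filaments of axons. Nefm was the member that passed the test between CKO and control oligodendrocytes. Its signals were 49.4, 76.4 and 61.1 in CKO oligodendrocytes, 117.9, 225.6, 927.1 and 248.5 in control oligodendrocytes, and 342.9, 222.7, 453.5 and 249.9 in OPCs. All CKO arrays were below all control and OPC arrays, control and OPC arrays overlapped, and control array 3 was 4.70-fold above the mean of the other control arrays. Nefm was at least 2.80-fold lower in CKO than in control oligodendrocytes (difference -1.95 ± 0.52, adjusted p = 0.0409) and at least 1.88-fold lower without control array 3. It was at least 3.05-fold lower in CKO oligodendrocytes than in OPCs (difference -2.05 ± 0.52, adjusted p = 0.00631), and at least 3.39-fold lower without OPC array 2 (adjusted p = 0.00387). Control oligodendrocytes and OPCs differed by -0.10 ± 0.48 (adjusted p = 0.871, 95% interval -1.15 to 0.94).

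The fall of Nefm in CKO against control oligodendrocytes was close to the threshold. The adjusted p was 0.142, 0.1 and 0.114 without CKO arrays 1, 2 and 3, 0.062 and 0.0664 without control arrays 2 and 4, and 0.058 without OPC array 1. Over all alternatives it ranged from 0.0177 to 0.142, and with the replicate number as a block the fall passed. Nefm was measured by 1 probe set, 1422520_at. It reached 200 on 7 arrays, all of control oligodendrocytes or OPCs, and so passed the filter only through the groups where it was high.

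Nefl was likewise at its lowest in CKO oligodendrocytes. Its representative probe set 1454672_at had 3, 12.8 and 27.8 in CKO oligodendrocytes, 22.4, 77, 245.8 and 145.9 in control oligodendrocytes, and 189.1, 153.9, 243 and 220.8 in OPCs. CKO and OPC arrays were wide apart, while CKO array 3 was above control array 1 and control array 3 was the highest of all. The probe set reached 200 on exactly 3 arrays, 2 of OPCs and 1 of control cells. Nefl was at least 1.99-fold lower in CKO oligodendrocytes than in OPCs (difference -2.90 ± 0.56, adjusted p = 0.00126), and at least 2.16-fold lower without OPC array 2 (adjusted p = 0.000793). The fitted difference of Nefl there was -4.10 with a pseudocount of 1, -1.76 with a pseudocount of 64 and -1.92 without the filter, and it passed in each. The difference between CKO and control oligodendrocytes was -1.94 ± 0.56 (adjusted p = 0.0552), and with the replicate number of Nefl arrays as a block it passed (adjusted p = 0.0385). Over all alternatives that adjusted p ranged from 0.00937 to 0.199, and the fitted difference from -2.95 with a pseudocount of 1 to -1.11 with a pseudocount of 64, the CKO signals being near 0. Control oligodendrocytes and OPCs differed in Nefl by -0.95 ± 0.51 (adjusted p = 0.134). This difference passed without control array 3 (-1.37, adjusted p = 0.033) and turned to 0.28 without the filter, where the second probe set stands for the gene (adjusted p = 0.741).

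The second Nefl probe set, 1426255_at, did not pass the filter and was again lowest in CKO oligodendrocytes. It had 11.4, 45.5 and 34.7 in CKO oligodendrocytes, 71.5, 131.6, 651.7 and 180.2 in control oligodendrocytes, and 145.3, 95.9, 241.2 and 152.4 in OPCs. All CKO arrays lay below all others, and the level was at least 1.82-fold lower than in control oligodendrocytes, or at least 1.19-fold without control array 3. That array was 5.10-fold above the mean of the other control arrays on this probe set and 3.01-fold on the first. Without a filter this probe set stands for Nefl in the gene fit, where it was lower in CKO than in control oligodendrocytes (difference -2.20, adjusted p = 0.0488), while in the probe set fit without a filter its adjusted p was 0.0672. Nefm did not pass in that gene fit (adjusted p = 0.0528), so the 1 member called without the filter was Nefl and not Nefm.

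Ina, the gene of α-internexin, which joins the neurofilament subunits in axons, fell in control and in CKO oligodendrocytes against OPCs. Its signals were 210.6, 244.3 and 214.9 in CKO oligodendrocytes, 364.8, 225.1, 465.4 and 305 in control oligodendrocytes, and 558, 2388.7, 1873.8 and 967.6 in OPCs. Every OPC array was above every oligodendrocyte array, and control array 2 lay within the CKO range. Ina was 3.67-fold lower in control oligodendrocytes than in OPCs (difference -1.87 ± 0.39, adjusted p = 0.0018) and 5.30-fold lower in CKO oligodendrocytes than in OPCs (difference -2.41 ± 0.42, adjusted p = 0.000644). These folds were 2.96 (adjusted p = 0.00184) and 4.28 (adjusted p = 0.000416) without OPC array 2. Leaving out OPC arrays 1 and 4, the low ones for Ina, gave 6.18 and 8.93. CKO and control oligodendrocytes differed in Ina by -0.53 ± 0.42 (adjusted p = 0.512, 95% interval -1.44 to 0.38).

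The other Ina probe sets fell too in control oligodendrocytes against OPCs. Probe set 1418178_at had 250.9 to 267.1 in CKO oligodendrocytes, 281.4 to 379.9 in control oligodendrocytes and 471.8 to 1177.8 in OPCs, with no overlap between any of the groups. Between CKO and control oligodendrocytes its difference of -0.29 ± 0.26 did not pass the probe set test (adjusted p = 0.633). In that comparison 31.6% of all genes had arrays that did not overlap. The probe set fell by 1.24 in control oligodendrocytes (adjusted p = 0.00165) and by 1.53 in CKO oligodendrocytes (adjusted p = 0.000779) against OPCs, or by 1.05 (adjusted p = 0.00184) and 1.34 (adjusted p = 0.000604) without OPC array 2. Probe set 1448992_at had 136.8, 167.8 and 115.1 in CKO oligodendrocytes, 189.3, 147.8, 256.6 and 162 in control oligodendrocytes, and 263, 1106.9, 904.8 and 181.6 in OPCs, where arrays 2 and 3 were high and array 4 overlapped with control cells. Its fall by 1.28 in control oligodendrocytes (adjusted p = 0.044) did not pass without OPC array 2 (adjusted p = 0.0981), and the adjusted p was 0.0559 to 0.121 when any CKO array, control array 1, 2 or 4, or OPC array 3 was left out. In CKO oligodendrocytes it fell by 1.66 against OPCs (adjusted p = 0.0214), a call that ended without CKO array 1 or 3 or OPC array 3 (adjusted p = 0.0547 to 0.0674) and held without OPC array 2 (adjusted p = 0.0349).

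Markers of neurons were read beside these genes. Of 16 listed neuronal genes 12 were tested, and 0 were higher and 1 lower in CKO than in control oligodendrocytes, where 3 had an unadjusted p under 0.05. The lower one was Elavl3, an RNA-binding protein of neurons, at 1356 ± 216 in CKO and 4762 ± 566 in control oligodendrocytes and 1301 ± 421 in OPCs. The sum over the 16 genes was 14377.8 to 16349.8 in CKO oligodendrocytes, 15243.3 to 19025.1 in control oligodendrocytes and 17166.4 to 35519.5 in OPCs, and control array 3, which was highest for Nefl and Nefm, had the lowest control sum. In control oligodendrocytes against OPCs 3 were higher and 5 lower, and in CKO oligodendrocytes against OPCs 1 was higher and 6 lower, or 3 and 5 without OPC array 2. Stmn2, a tubulin-binding protein of growing axons, averaged 226 ± 84.4 in control oligodendrocytes and 18.4 ± 14.6 in OPCs, while Map2, a dendritic microtubule protein, averaged 2118 ± 524 in control oligodendrocytes and 7041 ± 2019 in OPCs. The part of neurons in the neurofilament results was not tested.

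**Figure D3:**
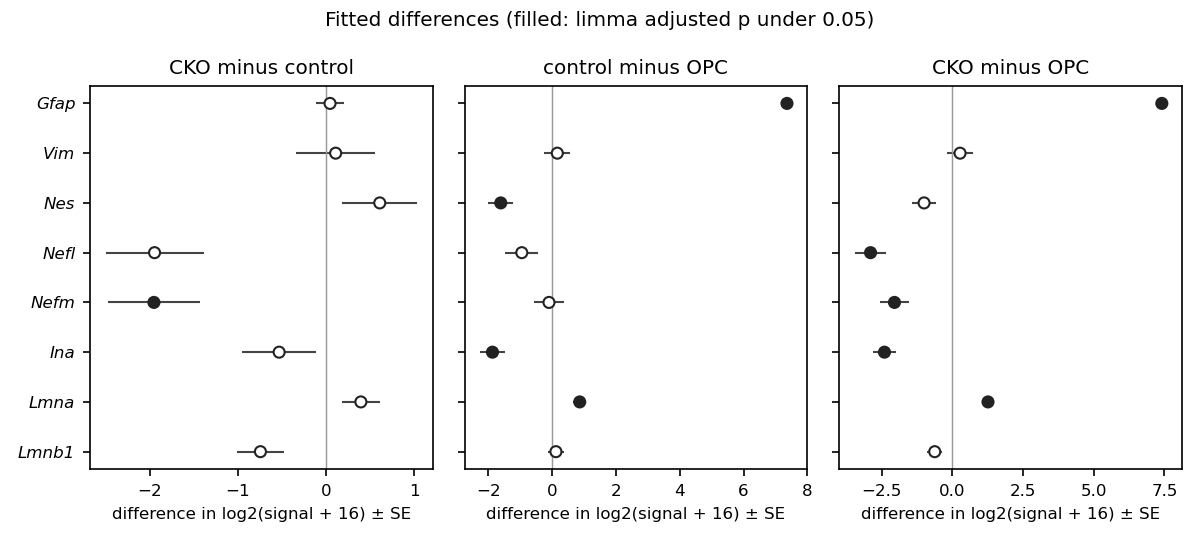
Fitted differences in log2(signal + 16) of the 8 tested genes with their standard errors, for CKO minus control oligodendrocytes, control oligodendrocytes minus OPCs and CKO oligodendrocytes minus OPCs, each panel with its own axis. Filled points passed an adjusted p of 0.05, which only Nefm did in the first panel, at -1.95.

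Lmna, which encodes the A-type lamins A and C by alternative splicing, rose in oligodendrocytes. Its representative probe set 1421654_a_at had 1624.7, 1682.1 and 1423.9 in CKO oligodendrocytes, 1048.4, 1104.8, 1527.4 and 1140.7 in control oligodendrocytes, and 889.5, 648.2, 626.8 and 488.7 in OPCs. Every oligodendrocyte array was above every OPC array, and control array 3 lay within the CKO range. Lmna was 1.82-fold higher in control oligodendrocytes than in OPCs (difference 0.86 ± 0.20, adjusted p = 0.00323) and 2.39-fold higher in CKO oligodendrocytes than in OPCs (difference 1.26 ± 0.21, adjusted p = 0.000539). The differences were again 0.86 and 1.26 without OPC array 2, with adjusted p of 0.00373 and 0.000495. On this probe set CKO and control oligodendrocytes differed by 0.40 ± 0.21 (adjusted p = 0.31, 95% interval -0.06 to 0.86).

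The dimmer Lmna probe sets differed more between CKO and control oligodendrocytes. Probe set 1425472_a_at had 638.1, 693.8 and 562.9 in CKO oligodendrocytes, 287.3, 287.5, 165.4 and 395.9 in control oligodendrocytes, and 150.3, 198.6, 160.7 and 131.8 in OPCs. Probe set 1457670_s_at had 451.8, 553.1 and 421.7 in CKO oligodendrocytes, 127.1, 150.8, 134 and 221.3 in control oligodendrocytes, and 137.6, 150.4, 53.9 and 145.9 in OPCs. On both, all CKO arrays were above all control and OPC arrays, and the second reached the filter only through the CKO arrays and control array 4. In the fit over all 18628 probe sets, where 5.43% passed in this comparison, the first was 2.24-fold higher (difference 1.16 ± 0.27, adjusted p = 0.0257) and the second 2.86-fold higher (difference 1.52 ± 0.33, adjusted p = 0.0189) in CKO than in control oligodendrocytes. With the replicate block the adjusted p of these Lmna probe sets was 0.00479 and 0.00192. Leaving out any CKO array gave 0.0703 to 0.124 for the first and 0.0593 to 0.102 for the second. Leaving out control array 1, 2 or 3 gave 0.0623, 0.0543 and 0.05 for the first, and leaving out control array 1 or 3 gave 0.0597 and 0.0567 for the second. With the mean over the 3 probe sets as the value of the gene, Lmna was 2.04-fold higher in CKO than in control oligodendrocytes (difference 1.03, adjusted p = 0.00591).

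Against OPCs, CKO oligodendrocytes were 3.69-fold higher on 1425472_a_at (adjusted p = 0.000226) and 3.75-fold higher on 1457670_s_at (adjusted p = 0.000733). These Lmna folds were 3.96 (adjusted p = 0.000109) and 4.06 (adjusted p = 0.000372) without OPC array 2. Control oligodendrocytes were 1.65-fold higher than OPCs on 1425472_a_at (adjusted p = 0.0285), or 1.77-fold without OPC array 2 (adjusted p = 0.0164), a call that ended without control array 1, 2 or 4 or OPC array 1 or 4 (adjusted p = 0.0597 to 0.0883). On 1457670_s_at their difference from OPCs was 0.39 (adjusted p = 0.293), or 0.51 without OPC array 2 (adjusted p = 0.181). Which Lmna transcripts each probe set detects is not given in the sources used here. The 2 remaining Lmna probe sets stayed under 100 on all arrays and were not tested.

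Markers of smooth muscle, pericytes and fibroblasts were read beside Lmna. Of 14 listed genes 3 were tested, and the contractile genes Tagln and Myl9 were higher in CKO than in control oligodendrocytes, at 2474 ± 573 in CKO and 519 ± 337 in control cells for Tagln and at 1821 ± 487 in CKO and 603 ± 306 in control cells for Myl9 (SD). All 3 were higher in CKO and in control oligodendrocytes than in OPCs, with and without OPC array 2. The filter favoured this direction, since the sum over all 14 genes was at most 614.3 on any OPC array. The summed signal was 4868.2 to 8401.6 in CKO oligodendrocytes, 1048.4 to 2990.2 in control oligodendrocytes and 376.4 to 614.3 in OPCs, and 6 of the 14 genes were under 100 on every array. Col1a1, the fibroblast collagen gene, averaged 35.7 ± 31.5 in CKO oligodendrocytes, 14.8 ± 4.85 in control oligodendrocytes and 6.98 ± 7.91 in OPCs. The part of such cells in the Lmna result was not tested.

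**Figure D4:**
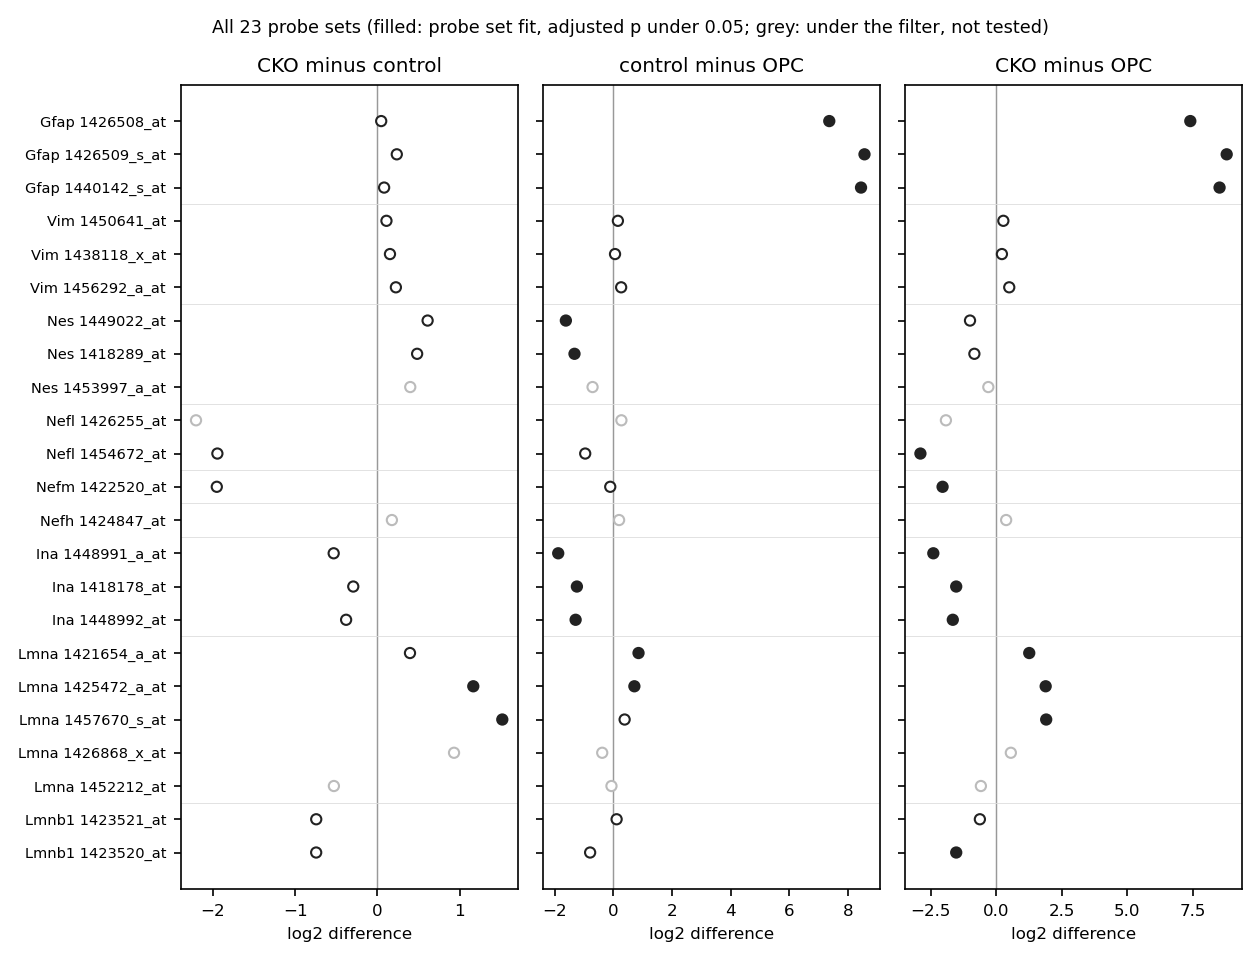
Differences in log2(signal + 16) for all 23 probe sets of the 9 genes, in CKO minus control oligodendrocytes, control oligodendrocytes minus OPCs and CKO oligodendrocytes minus OPCs, each panel with its own axis. Filled points passed an adjusted p of 0.05 in the fit over probe sets, open black points did not, and grey points were under the filter. In the first panel the filled points are 2 Lmna probe sets, at 1.16 and 1.52.

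Lmnb1, the gene of lamin B1, a B-type lamin that stays bound to the nuclear membrane, had all its CKO arrays below the control arrays without passing the test. Its signals on 1423521_at were 574.1, 360.5 and 546.8 in CKO oligodendrocytes, 712.5, 603.3, 1076.4 and 980.2 in control oligodendrocytes, and 979.3, 542.5, 741.3 and 830.3 in OPCs. CKO and control arrays thus did not overlap, and OPC array 2 lay among the CKO arrays. The difference between CKO and control oligodendrocytes was -0.74 ± 0.26 (adjusted p = 0.121), and with the replicate number of Lmnb1 arrays as a block it passed (adjusted p = 0.0399). Against OPCs the difference was 0.12 ± 0.24 in control oligodendrocytes (adjusted p = 0.708) and -0.63 ± 0.26 in CKO oligodendrocytes (adjusted p = 0.0649). Leaving out OPC array 2 gave -0.78 in CKO oligodendrocytes, a 1.72-fold fall (adjusted p = 0.0176), and -0.04 in control oligodendrocytes (adjusted p = 0.894). The fall of Lmnb1 in CKO oligodendrocytes against OPCs also passed with quantile normalization (-0.76, adjusted p = 0.0389) and with the mean over both probe sets (-1.08, adjusted p = 0.0065).

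The second Lmnb1 probe set, 1423520_at, had 161.9, 113.2 and 41.2 in CKO oligodendrocytes, 202.7, 131.2, 169.6 and 173.6 in control oligodendrocytes, and 393.3, 167.7, 306.7 and 398.1 in OPCs. OPC arrays 1, 3 and 4 were high, and OPC array 2 lay among the control arrays. It was 2.89-fold lower in CKO oligodendrocytes than in OPCs (difference -1.53 ± 0.40, adjusted p = 0.00784), with a difference of -1.79 without OPC array 2 (adjusted p = 0.00147), while control oligodendrocytes differed from OPCs by -0.79 (adjusted p = 0.0897), or by -1.05 without OPC array 2 (adjusted p = 0.0199). Without CKO array 3 in the fit the difference of control oligodendrocytes also passed (adjusted p = 0.0431). CKO and control oligodendrocytes differed by -0.74 on it (adjusted p = 0.359).

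Genes of dividing cells were read beside the lamins. Of 12 tested genes of a list of dividing cells, 12 were lower in CKO and 12 in control oligodendrocytes against OPCs, and 1 was lower in CKO than in control oligodendrocytes, or 8 without OPC array 2 in the fit. That gene was Mki67, a proliferation marker, at 96.7 ± 29.2 in CKO oligodendrocytes, 462 ± 217 in control oligodendrocytes and 9935 ± 5544 in OPCs. The summed signal of the 13 listed genes with a probe set was 6914.5 to 8541.9 in CKO oligodendrocytes and 10347 to 22229.3 in control oligodendrocytes, with control array 3 at the top, which was the highest control array for Lmnb1 on 1423521_at but not on 1423520_at. In OPCs it was 92111.1 to 115119 on arrays 1, 3 and 4 and 26620.6 on array 2, the lowest OPC array on both Lmnb1 probe sets. The part of dividing cells in the lamin results was not tested.

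Across the family, 2 members did not overlap between CKO and control oligodendrocytes, Nefm and Lmnb1, both lower, beside 14.2% of all genes lower and 31.6% in either direction. Between control oligodendrocytes and OPCs 3 members did not overlap, Gfap and Lmna higher and Ina lower, beside 20.1% of all genes higher, 23.7% lower and 43.8% in all. Between CKO oligodendrocytes and OPCs 5 did not, Gfap and Lmna higher and Nefl, Nefm and Ina lower, beside 23.5% higher, 26.4% lower and 49.9% in all. Of the 6 genes with several tested probe sets, the sign was the same on all of them for 6 between CKO and control oligodendrocytes, for 5 between control oligodendrocytes and OPCs, with Lmnb1 the exception, and for 6 between CKO oligodendrocytes and OPCs. With OPC array 2 left out, the members called in control oligodendrocytes against OPCs were again 4, beside 60.8% of all genes. In CKO oligodendrocytes against OPCs they were 7, beside 58.8%, with Nes and Lmnb1 added, and in CKO against control oligodendrocytes 2, beside 13.1%, with Nefl added.

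Other intermediate filament genes were mostly dim. Of 20 listed genes, among them the keratins, desmin and synemin, 13 were under 100 on every array and 4 were tested. Prph, which encodes the neuronal filament peripherin, was higher in control oligodendrocytes than in OPCs, at 1048 ± 839 and 84.5 ± 79.6 (8.19-fold, adjusted p = 0.00718), and in CKO oligodendrocytes it averaged 1753 ± 475 (21.0-fold over OPCs, adjusted p = 0.00139). Lmnb2, the gene of the other B-type lamin, was lower at 214 ± 62.5 in control oligodendrocytes and 771 ± 339 in OPCs (3.25-fold, adjusted p = 0.00176), and averaged 172 ± 53.2 in CKO oligodendrocytes. Neither passed the test between CKO and control oligodendrocytes, where 0 of the 4 did and 1 had an unadjusted p under 0.05, and both were called against OPCs without OPC array 2 too. Bfsp2, a filament gene of the eye lens, was called higher in both comparisons with OPCs when array 2 was left out (adjusted p = 0.0158 in control and 0.0176 in CKO oligodendrocytes).

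Of 8 linker proteins that tie filaments to junctions and to other parts of the cytoskeleton, 4 were tested. Plec, Dst and Jup were higher in control and in CKO oligodendrocytes than in OPCs, with and without OPC array 2. Of all genes, 24.4% were called higher in control and 23.8% in CKO oligodendrocytes than in OPCs. Plec, the cytolinker plectin, averaged 1078 ± 185 in CKO oligodendrocytes, 1110 ± 272 in control oligodendrocytes and 400 ± 137 in OPCs. In CKO against control oligodendrocytes 0 of the 4 passed the test, and 0 had an unadjusted p under 0.05.

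Of 21 partners of the nuclear lamina and enzymes that process lamins 20 were tested. In CKO against control oligodendrocytes 0 were higher and 1 was lower, Fntb, the β subunit of the farnesyltransferase that prenylates lamins, at 631 ± 89.1 in CKO and 1453 ± 421 in control oligodendrocytes (2.22-fold lower, adjusted p = 0.019). In control oligodendrocytes against OPCs 4 were higher and 7 lower, beside 54% of all genes called in either direction. In CKO oligodendrocytes against OPCs 3 were higher and 7 lower, beside 50.6%, so both shares were near those of all genes. Lbr, the lamin B receptor of the inner nuclear membrane, averaged 546 ± 60.9 in CKO oligodendrocytes, 823 ± 166 in control oligodendrocytes and 3463 ± 1507 in OPCs, and Tmpo, a lamin-binding membrane protein, 849 ± 196 in CKO oligodendrocytes, 1033 ± 91.9 in control oligodendrocytes and 3966 ± 1504 in OPCs (SD). Both fell in control and in CKO oligodendrocytes against OPCs. Leaving out OPC array 2 gave 1 higher and 1 lower in CKO against control oligodendrocytes, and 4 higher and 8 lower in CKO oligodendrocytes against OPCs. Icmt, which methylates prenylated lamins, was 2.00-fold higher in control oligodendrocytes than in OPCs (adjusted p = 0.0013) and 2.13-fold higher in CKO oligodendrocytes than in OPCs (adjusted p = 0.00129), and was called in both without OPC array 2.

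Of 22 kinases and phosphatases known to act on filament proteins 17 had a probe set and 15 were tested. In CKO against control oligodendrocytes 0 passed the test, 6 had an unadjusted p under 0.05, and 4 were called lower without OPC array 2. In control oligodendrocytes against OPCs 2 were higher and 8 lower, beside 54% of all genes called in either direction. In CKO oligodendrocytes against OPCs 1 was higher and 8 lower, beside 50.6%, or 7 lower without OPC array 2, beside 58.8%. The mitotic kinases Aurka, Aurkb, Cdk1 and Plk1 were among the lower ones in both, with Plk1 at 76.3 ± 11.7 in CKO oligodendrocytes, 228 ± 109 in control oligodendrocytes and 2181 ± 1174 in OPCs. Camk2d, a calcium-dependent kinase, was higher, at 395 ± 91.6 in CKO oligodendrocytes, 332 ± 78.2 in control oligodendrocytes and 90.1 ± 34.9 in OPCs.

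The genes whose pattern lay nearest to each member were found by the root mean square of their differences in centred log2(signal + 16) over the 11 arrays, as a description. For Gfap they were S1pr3 at 0.48, Apoe at 0.51 and Mlc1 at 0.56. Nefl and Nefm were among each other's 3 nearest genes, at 0.57, with Sdc1 at 0.51 from Nefl and 0.56 from Nefm, and no other members were among each other's nearest. Nearest to Ina stood Epb41l3 at 0.41, nearest to Nes Zfp36l1 at 0.28, nearest to Vim Epha5 at 0.20, nearest to Lmnb1 Uspl1 at 0.21 and nearest to Lmna Galnt11 at 0.20. Members with a small spread over the arrays, such as Lmna, Lmnb1 and Vim, have many near genes.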

How the data were processed

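Per the submitters' processing notes, GCOS 1.3 and MAS 5.0 were used, and the deposited intensities are MAS 5.0 signals, 1 value per probe set and array, scaled by the authors to a trimmed mean of 500. RNA of 1 µg went through 2-cycle labelling per the labels, for arrays whose probes lie towards the 3′ end. Arrays have no read depth, and their number limits the precision. Of 45101 probe sets, 34958 had 1 gene symbol, 932 several and 9211 none in the platform annotation, and 34754 symbols were updated through Entrez IDs.

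Probe sets with a signal of at least 200 on 3 or more arrays were kept, and each gene was read from the kept probe set whose log2(signal + 16) had the highest mean. A means model over all 11 arrays was fitted with limma 3.58.1 in R 4.3.3 (moderated test with a trended variance prior, two-sided) to 10070 genes, with Benjamini-Hochberg adjustment over all of them and a threshold of 0.05, and likewise to 18628 probe sets. Adjusted p-values come from these fits unless an alternative is named beside them. The limma fit was tested on simulated data with independent normal noise, equal between groups for each gene. Those data held no outlying array, so they do not show how the fit behaves with arrays such as OPC array 2. Where all arrays of the lower group were under 100, folds are bounds against a floor of 100 per array. Every member is named. Of the other lists, up to 4 called genes per direction and comparison and the 2 brightest markers of other cell types could be named, and any other gene, such as Col1a1, Pdgfra or Bfsp2, was chosen after its values were seen. The members and lists were chosen with earlier results of these data known. Alternatives changed the pseudocount, filter, probe set rule, normalization, variance prior, block and arrays used, and those on single probe sets and on OPC arrays 1 and 4 were chosen after the data were seen.

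In CKO and control oligodendrocytes, deviations of same-numbered arrays from their group means correlated across genes at 0.242, 0.241 and 0.214. Arrays of different numbers were not compared, so these values do not establish a pairing, and the labels give only the numbers. The main fit used no block. The replicate block, which treats same-numbered arrays as pairs, is an alternative whose basis is not known.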

Additional observations from a re-analysis of the deposited data

Results flagged for a closer look

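In 36 groups of 4 arrays, over the member probe sets that passed the filter, the array at either end was set against the others, and 3 groups had an array far from the rest. Chance gives about 1 in 20 groups. OPC array 2 was low on 2 Vim probe sets, at 5745 where the other OPC arrays had 19817 to 24948.8, and at 3057.3 where they had 15795.4 to 21005.2. OPC array 3 was low on a dim Lmna probe set, at 53.9 where the others had 137.6 to 150.4.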

How the results depend on the processing

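Over 24 differences of members and 22 alternatives, 522 values could be computed. Of these, 497 left the call as it was, 11 lost a call, 14 gained one and 0 turned a called difference round. Nefl and Nefm could not be tested with a filter at 400. For single probe sets, 1 value turned sign and passed: leaving out OPC array 2 moved Vim in control oligodendrocytes against OPCs to -0.44. The members called in CKO against control oligodendrocytes, 1 in all, were 2 with a pseudocount of 1, with the mean over probe sets or without a variance trend, and 3 with the replicate block. They were 0 with a pseudocount of 64, a filter at 400 or OPC arrays 1 and 4 left out, and 0 to 2 when any 1 array was left out. With every probe set tested on its own they were 0 on the representative probe sets, while 2 other Lmna probe sets were called higher. The 1 call was Nefm, but Nefl in its place without a filter. In CKO oligodendrocytes against OPCs 5 were called, 3 with a filter at 400, 6 with the mean over probe sets and 7 with quantile normalization. In control oligodendrocytes against OPCs they were 4, 3 without OPC arrays 1 and 4 and 5 without control array 3. Nefl there turned from -0.95 to 0.28 without a filter, neither called. All genes called in CKO against control oligodendrocytes, 758, were 1587 with only these groups, 2238 with the replicate block and 374 to 1323 with any 1 array left out. The share called higher was 48.4%, against 58.4% with the block and 37.2% without CKO array 1. Against OPCs, testing every probe set gave 9936 in control and 9422 in CKO oligodendrocytes, and the replicate block gave 3091 genes in CKO oligodendrocytes. Beside Nefl, Lmnb1 and the counts above, the block changed no other call of a member in CKO against control oligodendrocytes. In the comparisons with OPCs, same-numbered arrays had correlations of -0.069 to 0.193 in control and -0.117 to 0.033 in CKO oligodendrocytes. The causes of these moves were not tested. Signals near the floor, as of Nefl, limit the folds that could be given.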
